A study of Homo sapiens with 3 samples.

Results

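The SR proteins and the heterogeneous nuclear ribonucleoproteins (hnRNPs) are RNA-binding proteins that steer the choice of splice sites. The genes described here are 34 members chosen by symbol: 11 SR protein genes (SRSF1 to SRSF11), 2 Tra2 genes, 18 hnRNP genes, PTBP1, PTBP3 and RBM39. All 34 were found among the 35851 rows of the deposited expression table. The cells were 5637, an established human bladder cancer line of wild-type genotype, transfected with siRNA in Lipofectamine 3000. One group received a control siRNA (siNC, 1 library). The other, siMYBL2, had 2 libraries (siMYBL2-1 and siMYBL2-2) from cells given siRNA to MYBL2, to find genes that lie downstream of this cell cycle transcription factor of the MYB family. The labels do not say whether -1 and -2 are different siRNA sequences or repeats of 1 sequence, nor that the cultures were separate, so the spread of the pair may hold either difference, or a technical one.

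SR proteins carry RNA recognition motifs and a tail rich in arginine and serine, bind mostly to exonic enhancers, and help the U1 and U2 particles to define an exon. Many hnRNPs coat the new transcript, bind exonic or intronic silencers and oppose SR proteins at the same exon, as hnRNP A1 does to SRSF1. Both families keep their own levels in check by including poison exons or retaining introns, which send the transcript to nonsense-mediated decay or hold it in the nucleus.

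Levels are RPKM, reads per kilobase of exonic length scaled to the reads assigned to genes in the library. Where 3 values follow each other, they stand in the order siNC, siMYBL2-1, siMYBL2-2. The libraries held 40259436, 41818861 and 46177658 assigned reads, and the members had between 387 and 286795 reads each. Mitochondrially encoded genes took 7.25%, 7.24% and 6.04% of the reads. Of the epithelial markers, 6 of 6 were at 8.98 to 949 RPKM, while 6 of 7 markers of immune, fibroblast and endothelial cells stayed below 0.1 RPKM in each library. The exception was COL1A1, at 1.43, 2.03 and 1.31 RPKM, and the 7 summed to 1.52, 2.08 and 1.42 RPKM; their part in the values below was not tested. MYBL2, the targeted gene, was at 211 RPKM in siNC, 46.0 in siMYBL2-1 and 56.3 in siMYBL2-2, or 0.218 and 0.267 times siNC. Its log2 change was -2.03 (SE 0.30), which did not pass the threshold by limma (adjusted p = 0.153). Over the 6 alternative fits the adjusted p ran from 0.00811 to 1.00, and MYBL2 passed in 1 of them, limma-voom on the recovered reads.

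The members were among the most abundant messages of these cells and varied little between the libraries. Their median level in siNC was 99.7 RPKM, against 4.71 RPKM for all 13274 genes tested (mean level 1 RPKM or more), and 26 of 34 lay at or above the 90th percentile of the genes tested. Together they took 3.51%, 3.20% and 3.51% of the assigned reads. No member passed the test of siMYBL2 against siNC (limma on log2(RPKM + 1), threshold an adjusted p of 0.05), and no member had an unadjusted p under 0.05, where 0.00753% and 4.71% of all genes tested did. Adjusted p-values of the members were 0.999 to 1.00. The fitted log2 changes ran from -0.30 for HNRNPUL2 to 0.39 for HNRNPH3, with standard errors of 0.28 to 0.32, and the 95% interval of each of the 34 changes held 0. These intervals, which are not adjusted, reached 0.63 to 0.72 to either side on the log2 scale, and together spanned 0.495-fold to 2.06-fold. After adjustment over all genes tested the limit was wider. MYBL2, at a log2 change of -2.03, did not pass, and the 1 gene called, ANKRD1, was at 3.92. Changes of moderate size, and some large ones, were thus not detectable with 2 libraries against 1. In RNA from a whole culture, a change in the number of cells of a kind and a change of RNA per cell cannot be told apart.

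**Figure D1:**
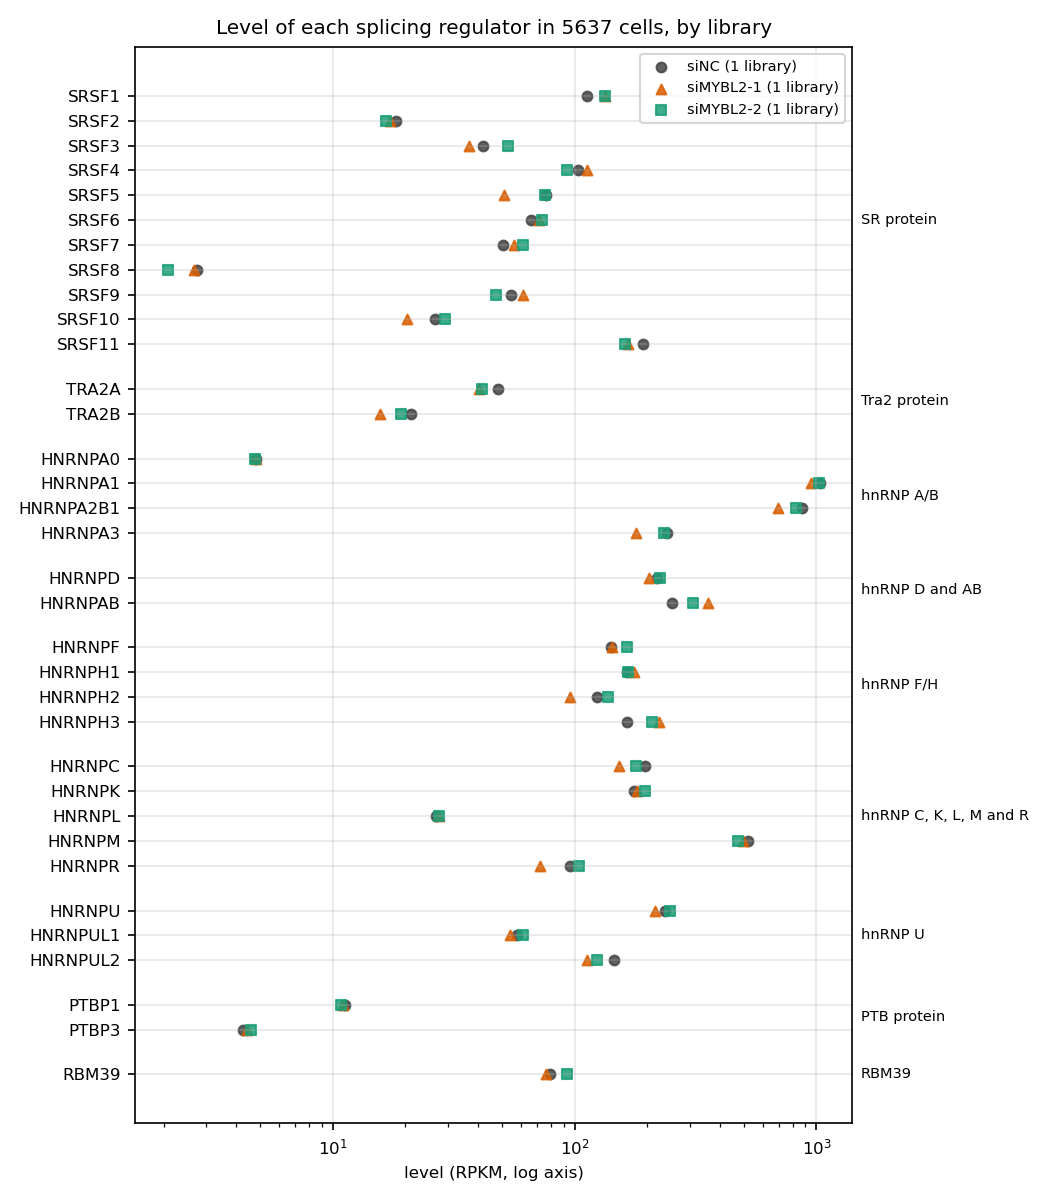
Level of each of the 34 splicing regulators in RPKM (log axis) in siNC, siMYBL2-1 and siMYBL2-2, with 1 point per library and genes grouped by protein family. HNRNPA1, HNRNPA2B1 and HNRNPM stand at the right, from 474 to 1029.7 RPKM, and SRSF8, PTBP3 and HNRNPA0 at the left, below 5 RPKM.

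By direction alone, 10 of 34 members (29.4%) were higher in both siMYBL2 libraries than in siNC, where 29.7% of all genes tested were. Another 14 (41.2%) were lower in both, against a background of 36.4%, and 10 (29.4%) went in opposite directions, against 33.9%. All these shares lie near the background, so they are no result about the members. Over the 6353 genes whose mean level was 5 RPKM or more, 34.1% were higher in both, 32.3% lower in both and 33.6% opposite. No test against either background was made. With each library scaled by its median ratio instead, 11 members (32.4%) were higher and 10 (29.4%) lower in both, against 33.1% and 32.8% of all genes tested under that scaling. HNRNPH3 was the only member at least 25% above siNC in both libraries (2.94%, background 8.11%), and no member was at 0.8 times siNC or less in both (background 11.6%). Over the genes of 5 RPKM or more these backgrounds were 8.2% and 7.48%. No member was outside 2-fold in either library, where 9.05% of all genes tested were in siMYBL2-1 and 3.75% in siMYBL2-2. Among the genes of 5 RPKM or more these shares were 5.98% and 1.53%. Both ratios share the siNC library, so a deviation of siNC would move them the same way.

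**Figure D2:**
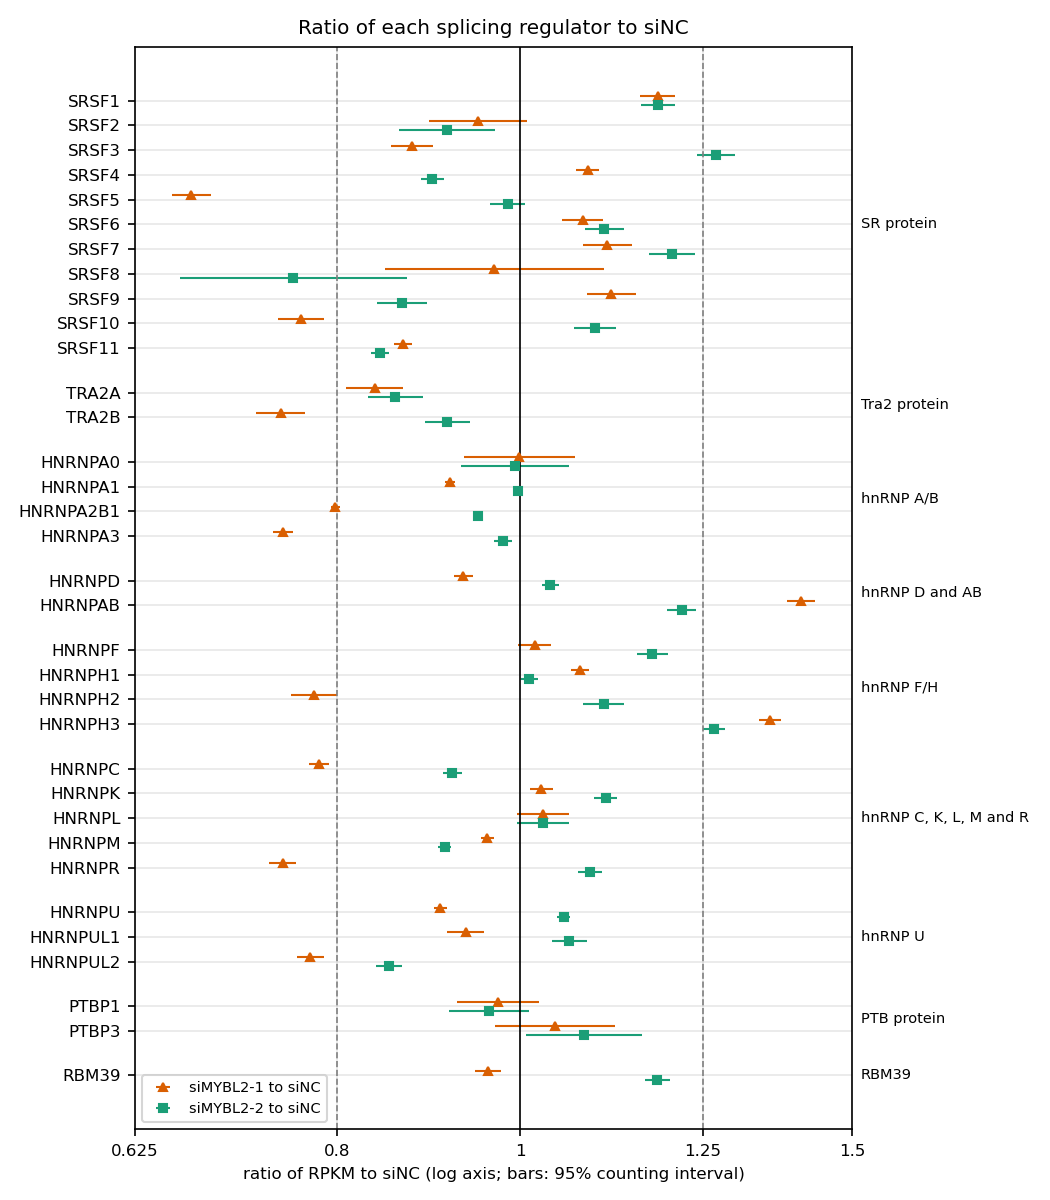
Ratio of RPKM to siNC (log axis) for each member in siMYBL2-1 and siMYBL2-2, with bars for the 95% counting interval, which covers counting error only, and dashed lines at 0.8 and at 25% above siNC. HNRNPH3 is the only gene whose 2 points both lie beyond a dashed line on the same side, and the 2 points of SRSF1 coincide at 1.18.

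The SR proteins come first. SRSF1, the founding SR protein, which promotes the use of nearby splice sites and also acts in translation, was at 113 RPKM in siNC and 133 RPKM in each siMYBL2 library, a mean of 133 ± 0.0137 RPKM (SD, n = 2). This SD lies below counting error, since the ratio of siMYBL2-1 to siMYBL2-2 had a counting interval of 0.980 to 1.02. It therefore does not measure the spread between libraries. SRSF1 was 1.18 times siNC in each siMYBL2 library, with a counting interval of 1.16 to 1.21. The fitted log2 change was 0.24 (SE 0.29, limma adjusted p 0.999). On chromosome 17, minus strand (hg38, 58003360 to 58007346), SRSF1 shares exonic bases with other rows, and 76.9% are its own. RP11-159D12.5 on the same strand was at 232, 239 and 217 RPKM, and RP11-159D12.6 on the opposite strand at 62.7, 87.1 and 106 RPKM. The strand setting of the counting is not given in the sources used here, so reads that fall on shared bases may belong to either row.

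SRSF6 and SRSF7, both enhancer-binding SR proteins with an autoregulated poison exon, were the other SR genes higher in both siMYBL2 libraries. SRSF6 was at 66.0 RPKM in siNC, 71.3 in siMYBL2-1 and 73.2 in siMYBL2-2. SRSF7, the family member with a zinc knuckle, was at 50.6, 56.3 and 61.0 RPKM. In both genes the siMYBL2 values lay closer to each other than to siNC.

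Nominally lower in both were SRSF2, SRSF5, SRSF8 and SRSF11. In siMYBL2-1 the ratios of SRSF2 and SRSF8 to siNC had counting intervals of 0.895 to 1.01 and 0.848 to 1.11, which include 1. SRSF11, a divergent family member, was at 192 RPKM in siNC, 166 in siMYBL2-1 and 161 in siMYBL2-2, or 0.867 (0.857 to 0.877) and 0.843 (0.833 to 0.852) times siNC. The 2 siMYBL2 values thus lay within 1.03-fold of each other and apart from siNC, yet the fitted log2 change of -0.23 (SE 0.29) did not pass limma (adjusted p 0.999). SRSF2, which binds exonic enhancers and stays in the nucleus, was at 18.2, 17.3 and 16.7 RPKM. Only 63.3% of the SRSF2 exonic length is its own, since MFSD11 overlaps it on the opposite strand. SRSF8, a retrogene copy related to SRSF2 with 1 exonic block in the table, was the lowest SR gene, at 2.74, 2.66 and 2.08 RPKM. With the median ratio scaling SRSF8 was no longer lower in both.

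SRSF5, a relative of SRSF4 and SRSF6, stood apart in siMYBL2-1. It was at 76.3 RPKM in siNC, 51.1 in siMYBL2-1 and 75.2 in siMYBL2-2, so that the lower value stood in siMYBL2-1 alone (0.669 times siNC, counting interval 0.654 to 0.686) and siMYBL2-2 was level with siNC (0.985, 0.964 to 1.01). SRSF3, the smallest SR protein and a factor in mRNA export, was at 41.7, 36.5 and 53.0 RPKM, lower in siMYBL2-1 and higher in siMYBL2-2. SRSF10, an SR protein that represses splicing when dephosphorylated, had the same order, at 26.6, 20.3 and 29.1 RPKM. SRSF4 and SRSF9 had the opposite order. SRSF4, which has the longest arginine-serine tail of the close SRSF5 and SRSF6 relatives, was at 103, 112 and 92.9 RPKM. SRSF9, a close relative of SRSF1, was at 54.6, 61.0 and 47.3 RPKM. Its own share of exonic length, 53.8%, was the lowest of the 34, because GATC lies across it on the opposite strand.

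Summed over the 11 SR genes the level was 744, 728 and 745 RPKM, or 0.978 and 1.00 times siNC. The total thus differed less than most of its parts, 3 of which were higher in both, 4 lower in both and 4 in opposite directions. The Tra2 proteins, relatives of the SR family that activate exons through GAA-rich enhancers, were both lower in both siMYBL2 libraries. TRA2A was at 48.1, 40.2 and 41.3 RPKM and TRA2B at 21.0, 15.7 and 19.2 RPKM. The siMYBL2 values of TRA2A were close to each other, at 0.837 and 0.859 times siNC, while TRA2B was at 0.747 and 0.915 times siNC. Their fitted log2 changes of -0.23 (SE 0.29) and -0.26 (SE 0.30) did not pass limma (adjusted p 0.999 for each).

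Among the hnRNPs, the A/B family was the most abundant. HNRNPA1, an antagonist of SRSF1 in the choice of 5′ splice sites, was at 1029.7 RPKM in siNC, 945 in siMYBL2-1 and 1026.7 in siMYBL2-2. HNRNPA2B1, a splicing and RNA transport factor, was at 867, 692 and 824 RPKM, HNRNPA3 at 240.0, 179.7 and 235 RPKM, and the intronless HNRNPA0 at 4.81, 4.81 and 4.78 RPKM. All 4 were nominally lower in both siMYBL2 libraries. In siMYBL2-1 the ratios to siNC were 0.918, 0.798, 0.749 and 0.999, and in siMYBL2-2 they were 0.997, 0.950, 0.979 and 0.994, so the distance stood mainly in siMYBL2-1. With the median ratio scaling HNRNPA0 was higher in both and HNRNPA1 went in opposite directions, so for these genes the direction depends on the scaling. HNRNPA1 and HNRNPA3 have many processed copies. The table holds 69 rows named as copies of HNRNPA1, with 4.14%, 3.76% and 3.79% as many reads as the parent, and 14 copies of HNRNPA3, with 4.91%, 4.82% and 4.57%. Of 113 copies of all members, 22 reached a mean of 1 RPKM, such as HNRNPA1P48 at 44.5, 37.5 and 44.9 RPKM and HNRNPA3P5 at 39.4, 25.6 and 32.0 RPKM. Reads may be split between such rows, so the levels of these parents are uncertain to that extent.

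The ratio of SRSF1 to HNRNPA1, an antagonist pair chosen for this ratio after its values were seen, was 0.109 in siNC (counting interval 0.108 to 0.111), 0.141 in siMYBL2-1 (0.139 to 0.143) and 0.130 in siMYBL2-2 (0.128 to 0.132). It was higher in both siMYBL2 libraries than in siNC, and the siMYBL2 values themselves differed beyond counting error. Of the 2 other pairs computed, SRSF2 to HNRNPA1 was at 0.0177, 0.0183 and 0.0162, and TRA2B to HNRNPA1 at 0.0204, 0.0166 and 0.0187, so the former went in opposite directions and the latter was lower in both. The ratio of RPKM within a library is free of its scaling, though not of the difference between cultures, which 1 siNC library cannot show.

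HNRNPAB and HNRNPD encode related proteins that bind AU-rich RNA and also DNA. HNRNPAB had the largest ratio of any member, at 253 RPKM in siNC, 356 in siMYBL2-1 and 308 in siMYBL2-2, or 1.41 (1.38 to 1.43) and 1.22 (1.20 to 1.24) times siNC. Its mean in the siMYBL2 group was 332 ± 34.1 RPKM (SD, n = 2), the fitted log2 change 0.39 (SE 0.29, limma adjusted p 0.999). HNRNPD, known as AUF1 for its part in mRNA decay, was at 218, 204 and 226 RPKM, lower in siMYBL2-1 and higher in siMYBL2-2. The row of HNRNPAB covers 178204507 to 178211163 on chromosome 5, plus strand, and 90.9% of that gene's exonic length is its own.

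The F/H family binds runs of guanine in RNA, and 3 of its 4 genes were higher in both siMYBL2 libraries. HNRNPH3 was at 165, 224 and 209 RPKM, and the siMYBL2 pair averaged 217 ± 10.5 RPKM (SD, n = 2). That is 1.36 (1.34 to 1.37) and 1.27 (1.2497 to 1.28) times siNC, and the siMYBL2 values differed by 1.07-fold. The log2 change was 0.39 (SE 0.29), with a 95% interval of -0.25 to 1.03 and a limma adjusted p of 0.999. The row of HNRNPH3 covers 68331174 to 68343191 on chromosome 10, plus strand, and 97.9% of the exonic length is its own. HNRNPF was at 141, 143 and 165 RPKM and HNRNPH1 at 164, 177 and 166 RPKM. HNRNPF was thus close to siNC in siMYBL2-1 (1.02 times) and HNRNPH1 in siMYBL2-2 (1.01 times). HNRNPH2 was at 124, 96.1 and 137 RPKM, below siNC in siMYBL2-1 and above it in siMYBL2-2. Its exons are shared in part with the readthrough row RPL36A-HNRNPH2 on the same strand, which was at 1546.4, 1468.3 and 1805.6 RPKM.

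The remaining hnRNPs showed no common direction. HNRNPC, which binds runs of uridine and guards against the use of Alu exons, was at 195, 152 and 179 RPKM, and HNRNPM, a silencer-binding factor linked to splicing in epithelial-mesenchymal transition, at 519, 499 and 474 RPKM. Both were lower in both siMYBL2 libraries. HNRNPK, which binds runs of cytosine through KH domains, was at 176, 181 and 195 RPKM and HNRNPL, a binder of CA repeats, at 26.7, 27.5 and 27.5 RPKM, both nominally higher. The ratios of HNRNPL were 1.03 (0.996 to 1.06) and 1.03 (0.997 to 1.06), with intervals that include 1. HNRNPR was at 95.9, 71.8 and 104 RPKM, below siNC in siMYBL2-1 and above it in siMYBL2-2.

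HNRNPU, a nuclear scaffold protein that binds chromatin and RNA, was at 236, 214 and 249 RPKM and its relative HNRNPUL1 at 57.9, 54.2 and 61.5 RPKM, with siNC between the siMYBL2 libraries in each. Of the HNRNPU exonic length, 74.2% is its own, since COX20 overlaps it on the opposite strand. HNRNPUL2 was the member with the lowest fitted change, at 145 RPKM in siNC, 112 in siMYBL2-1 and 123 in siMYBL2-2, or 0.774 (0.761 to 0.787) and 0.852 (0.838 to 0.865) times siNC. Its log2 change was -0.30 (SE 0.29, limma adjusted p 0.999), and 55.5% of its exonic length is its own. The readthrough row HNRNPUL2-BSCL2 on the same strand shares exonic bases with HNRNPUL2 and was at 185, 143 and 158 RPKM. Its order of libraries, the same as that of HNRNPUL2, is therefore not independent of it.

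PTBP1 and PTBP3, the polypyrimidine tract binding proteins that repress many exons, were low for their class. PTBP1 was at 11.3, 11.0 and 10.9 RPKM and PTBP3 at 4.24, 4.43 and 4.59 RPKM. The ratios of PTBP1 were 0.973 (0.926 to 1.02) and 0.963 (0.917 to 1.01), so counting error alone covers its difference from siNC. RBM39, a coactivator with an arginine-serine region that works beside U2AF, was at 79.0, 76.0 and 93.4 RPKM, lower in siMYBL2-1 and higher in siMYBL2-2.

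The members also spread less than other genes in size of difference. The median absolute log2 ratio to siNC was 0.15 over the members in siMYBL2-1 and 0.13 in siMYBL2-2, against 0.26 and 0.18 over all 13274 genes tested, and 0.27 and 0.19 over the 6353 genes whose mean level was 5 RPKM or more. The signed medians were -0.06 and 0.03 for the members and -0.04 and -0.01 for all genes tested. No test of this difference was made, and its cause was not tested.

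**Figure D3:**
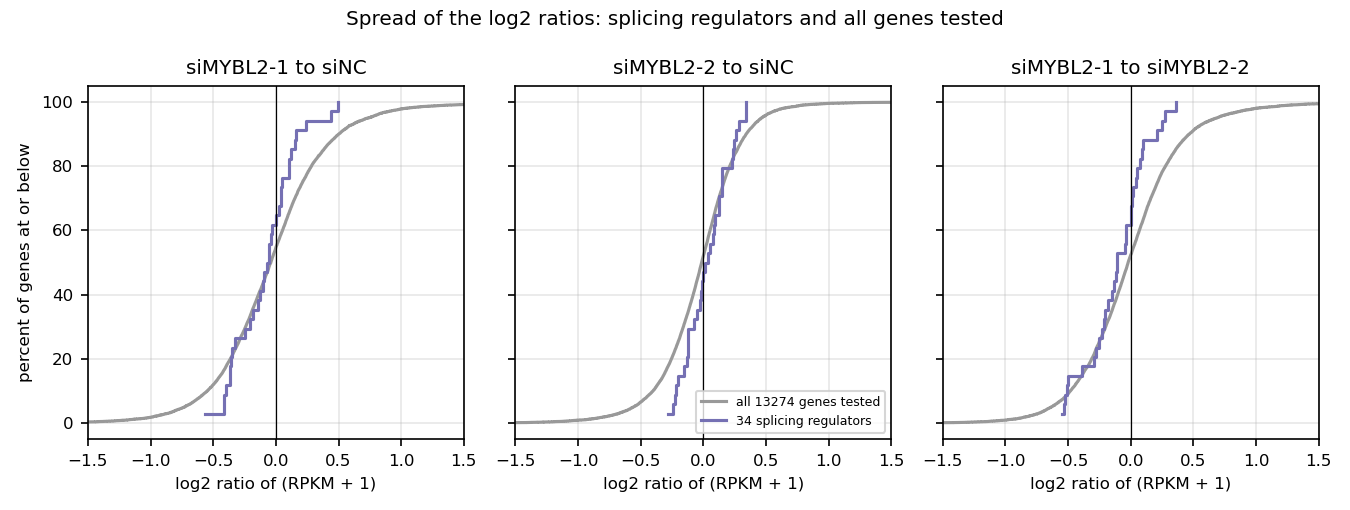
Cumulative percent of genes (vertical axis) at or below each log2 ratio of RPKM + 1 (horizontal axis), for the 34 members and for all 13274 genes tested, in 3 comparisons of libraries; the horizontal axis stops at 1.5 to either side, beyond which some of the other genes lie. The members stay between -0.57 and 0.49 in siMYBL2-1 and between -0.28 and 0.34 in siMYBL2-2.

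The siMYBL2 libraries differed from each other in several members, though less than in genes at large. The median absolute log2 ratio within the pair was 0.17 over the members and 0.23 over all genes tested. Set against siMYBL2-2, siMYBL2-1 had a median log2 ratio of -0.11 over the members, against -0.02 over all genes tested, and 22 of 34 members (64.7%) were lower in siMYBL2-1, against 52.4%. In siMYBL2-1, 6 members were at 0.8 times siMYBL2-2 or less (17.6%, background 24.9%): SRSF3, SRSF5, SRSF10, HNRNPA3, HNRNPH2 and HNRNPR. Their ratios within the pair were 0.690, 0.680, 0.699, 0.765, 0.702 and 0.687; the lowest ratio of any member to siNC was 0.669, for SRSF5. At least 25% higher were SRSF8 and SRSF9 (5.88%, background 22.1%). Among the genes of 5 RPKM or more these backgrounds were 22.9% for the lower and 18.4% for the higher side. Against siNC, 9 members were at 0.8 times or less in siMYBL2-1 (26.5%, background 29.4%), and 1, SRSF8, in siMYBL2-2 (2.94%, background 20.7%). With genes of 5 RPKM or more as the background, the shares were 24.1% in siMYBL2-1 and 14.3% in siMYBL2-2. The members' share in siMYBL2-1 thus lay between the 2 backgrounds. At least 25% above siNC were HNRNPAB and HNRNPH3 in siMYBL2-1 (5.88%, background 21.7%) and SRSF3 and HNRNPH3 in siMYBL2-2 (5.88%, background 15.6%). By a rule chosen after the values were seen, 12 members (35.3%, background 30.5%) had both siMYBL2 libraries farther from siNC, on the same side, than from each other: SRSF1, SRSF2, SRSF6, SRSF7, SRSF11, TRA2A, HNRNPAB, HNRNPH3, HNRNPL, HNRNPUL2, PTBP1 and PTBP3.

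Properties that the choice of members did not use were read from the GENCODE 29 annotation. Of the 34 members, 26 (76.5%) have at least 1 annotated transcript of the nonsense-mediated decay class, against 43.9% of 9735 tested protein-coding genes, and 25 (73.5%) have a retained-intron transcript, against 58.6%. The members also have more annotated transcripts, a median of 11.5 against 8.0, which gives more chances to hold either class. All 11 SR genes and both Tra2 genes have such a decay transcript, and SRSF7 has 6 of them among 12. RPKM sums over all these forms, so a shift between the coding and the decay form of a gene would not show in its level.

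Promoters are shown for HNRNPAB, HNRNPH3 and SRSF1, the 3 members with ratios to siNC of 1.18 or more in both siMYBL2 libraries, to set the sequence beside their values. RefSeq sequences (GRCh38.p14, 250 bases before to 50 after the start) matched 30 of the 34 members. Each was searched on both strands for AACGG (the core bound by MYB proteins), TTTGAA (the CHR element, bound by MuvB complexes), CACGTG (the E-box of MYC and its relatives) and CCAAT (the NF-Y box), none of which contains another. The stretches follow 5′ to 3′ on the strand of the gene, with motif matches in capitals. They are HNRNPAB before its deposited exons (chr5:178204283-178204506, plus strand), 30 bases at the E-box of HNRNPH3 (chr10:68331631-68331660, plus strand) and 30 bases at a MYB core match of SRSF1 (chr17:58007456-58007485, minus strand).
HNRNPAB: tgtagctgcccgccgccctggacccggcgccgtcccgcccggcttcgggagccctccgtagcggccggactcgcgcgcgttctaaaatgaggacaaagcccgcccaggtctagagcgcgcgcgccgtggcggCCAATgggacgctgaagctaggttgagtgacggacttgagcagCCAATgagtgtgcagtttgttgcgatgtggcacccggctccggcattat
HNRNPH3: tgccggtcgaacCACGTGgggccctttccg
SRSF1: taacttttaccaAACGGctggtcactctgt

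HNRNPAB holds 2 CCAAT boxes, which begin 118 and 75 bases before the start, and HNRNPH3 an E-box that begins 50 bases before it, within its first deposited exon. SRSF1 holds a MYB core that begins 227 bases before the start, where the deposited exons of the opposite-strand row RP11-159D12.6 lie, and HNRNPH3 and SRSF1 each hold 1 further match, not printed. Over all members with a sequence, AACGG was found in 11 of 30 promoters (36.7%), against 19.7% of all 35116 promoters and 25.6% of the 11676 promoters of genes tested. TTTGAA was found in 2 (6.67%, against 15.2% and 10.3%), namely SRSF6 and HNRNPR, CACGTG in 6 (20.0%, against 7.26% and 9.64%) and CCAAT in 15 (50.0%, against 34.6% and 35.3%). No test of these shares against the backgrounds was made. Of the 11 members with AACGG, SRSF1, SRSF6, SRSF7 and HNRNPH1 were higher in both siMYBL2 libraries. SRSF5, SRSF11, HNRNPM and PTBP1 were lower in both, and SRSF10, HNRNPD and HNRNPR went in opposite directions. A match is a run of letters and not a measured site, and binding of MYBL2 was not measured here.

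No gene of the wider splicing machinery passed the test either. In 5 lists of related genes, 120 of 124 genes were tested. None passed limma (smallest adjusted p 0.999) and none had an unadjusted p under 0.05, where 0.00753% and 4.71% of all genes tested did. With 1 gene called among all 13274, the lack of a call in these lists is no result about them. Direction counts of these lists stand beside 29.7% higher in both, 36.4% lower in both and 33.9% opposite over all genes tested, and nothing particular to a list is read from them. Of 47 genes of the snRNPs and the spliceosome core, 19 were higher in both siMYBL2 libraries, 11 lower in both and 17 in opposite directions, with median log2 ratios of -0.03 and 0.10. U2AF1, which recognises the AG at the 3′ splice site, was at 32.3, 40.9 and 41.5 RPKM. SNRPF, a protein of the Sm ring, was at 64.3, 72.1 and 87.9 RPKM, and SNRPB2, a protein of the U2 particle, at 17.0, 18.9 and 23.5 RPKM. In each list the 3 genes named have the largest mean difference from siNC among those on the same side of it in both siMYBL2 libraries.

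Of the 12 kinases, phosphatase genes and importers that act on SR proteins, 2 were higher in both, 5 lower in both and 5 opposite. CLK4 and CLK2, kinases that release SR proteins from nuclear speckles, had levels of 3.11, 2.02 and 2.62 RPKM (CLK4) and 22.2, 18.0 and 21.4 RPKM (CLK2), and PPP1CA, a catalytic subunit of protein phosphatase 1, at 16.8, 15.2 and 14.0 RPKM. Of 18 SR-related and exon junction genes, 6 were higher in both and 5 lower in both. ALYREF, an mRNA export adaptor, was at 107, 150.3 and 128 RPKM, RNPS1 at 13.4, 19.1 and 15.8 RPKM and SRRM1 at 43.4, 52.8 and 55.1 RPKM.

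Of 33 tested genes among the other alternative splicing regulators, 11 were higher in both and 10 lower in both. ESRP2, an epithelial splicing factor, was at 1.44, 4.14 and 1.79 RPKM, with the higher value in siMYBL2-1. TAF15, an RNA-binding protein that also associates with the TFIID complex, was at 318, 201 and 226 RPKM, or 0.631 and 0.713 times siNC, and SYNCRIP, an hnRNP-like protein, at 67.2, 88.0 and 91.7 RPKM. Of 10 factors of nonsense-mediated decay, 3 were higher in both and 2 lower in both. UPF3A was at 105, 78.7 and 76.1 RPKM, its paralog UPF3B at 260.3, 216 and 254 RPKM, and the kinase SMG1 at 3.80, 5.02 and 4.33 RPKM. The fitted log2 change was 0.63 (SE 0.37) for ESRP2 and -0.57 (SE 0.29) for TAF15. For SYNCRIP it was 0.41 (SE 0.29) and for UPF3A -0.43 (SE 0.29). None of these passed limma (adjusted p 0.999 for each).

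**Figure D4:**
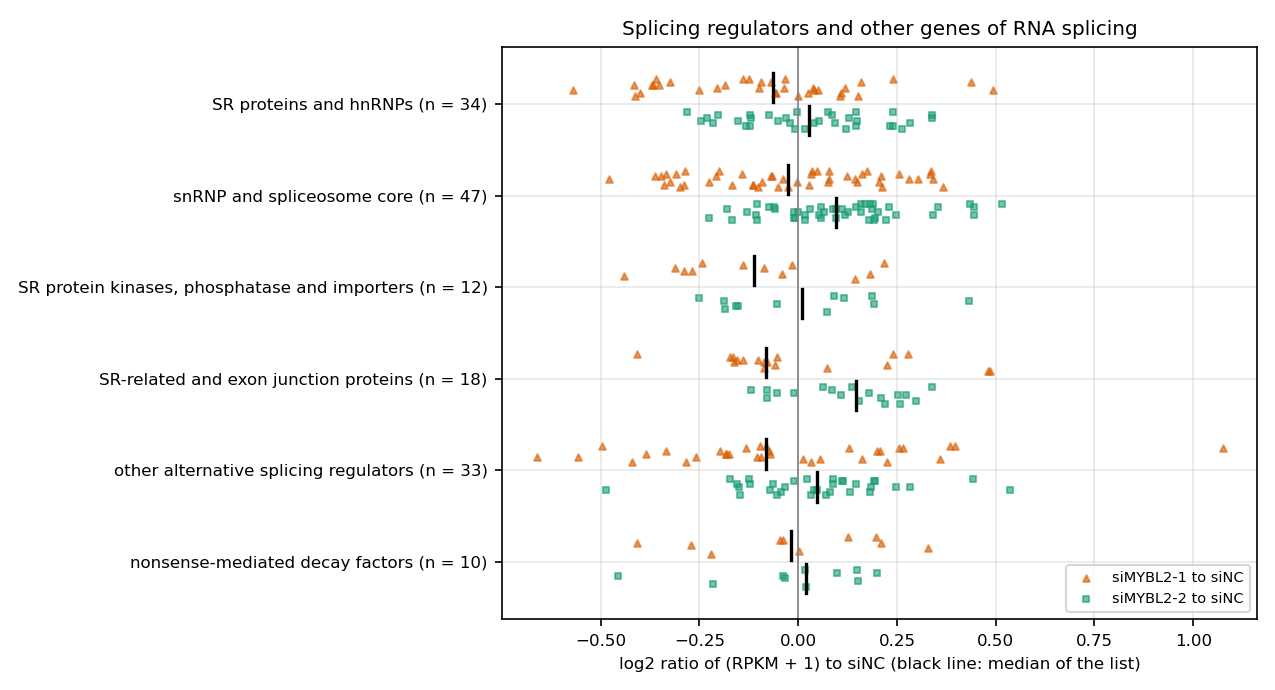
Log2 ratio of RPKM + 1 to siNC (horizontal axis) for each tested gene of the SR and hnRNP members and of 5 lists of related genes, in siMYBL2-1 and siMYBL2-2, with a black line at each median. The medians run from -0.11 to 0.15, and only ESRP2 in siMYBL2-1 lies beyond 1.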

How the data were processed

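Poly(A) RNA of 3 libraries was sequenced; per the labels' protocols the second cDNA strand was marked with dUTP. The authors deposited 1 table of RPKM per gene, with the exon intervals and exonic length of each row. The submitters' processing notes name cutadapt 1.9, HISAT2 2.0.4, StringTie 1.3.4d and hg38, with no role. Read counter, strand setting and annotation: not given in the sources used here. RPKM times length was a whole multiple of 1 step for 100% of values (tolerance 0.001 reads), which gave the reads used for counting intervals.

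The test was limma-trend (limma 3.58.1, R 4.3.3) on log2(RPKM + 1) over the 13274 genes whose mean level was 1 RPKM or more, adjusted by Benjamini-Hochberg over all of them, and tested on simulated data. The fit has 10.2 degrees of freedom after moderation across genes, and assumes that the siNC library varies like the siMYBL2 pair. P-values measure only the spread between these libraries, which may be technical. Fold changes on the log2(RPKM + 1) scale understate those of low genes. Ratios are plain RPKM ratios, with exact conditional binomial intervals at 95%, which cover counting error only since reads lack molecular identifiers. Exonic overlap was computed from the deposited intervals of all rows, on both strands.

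Members and lists were chosen with earlier results of these data known. Named were all members, MYBL2, and in each list the 3 genes of the largest mean change that lay on the same side of siNC in both siMYBL2 libraries. Rows named as copies of members are given by their sums. The alternatives tried were another pseudocount (0.1), filter (none, 5 RPKM) and scaling, robust moderation, limma-voom on the recovered reads, and each siMYBL2 library left out.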

Additional observations from a re-analysis of the deposited data

How the results depend on the processing

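No member passed the threshold under any of the 6 alternative fits, with adjusted p-values between 0.764 and 1.00. Over all genes the fit called 1 gene, ANKRD1. The count became 0 when low genes were kept, when the minimum was raised to 5 RPKM, under the median ratio scaling and under robust moderation. Limma-voom, run on recovered reads, called 10; the cause of these differences was not tested. Under the median ratio scaling the log2 change turned positive in 6 members that lay near 0: SRSF4 (0.0197), SRSF9 (0.0142), HNRNPA0 (0.0269), HNRNPD (0.0145), HNRNPU (0.0058) and HNRNPUL1 (0.0328). The other members kept their direction in every alternative fit that tested them, and the filter at 5 RPKM left 31 to test. With either siMYBL2 library left out, no test can be made, and the counts are those of the other library alone: 12 to 18 members higher than siNC, 16 to 22 lower, 2 (either library) at least 25% above siNC, and 1 (siMYBL2-2 alone) to 9 (siMYBL2-1 alone) at 0.8 times siNC or less. MYBL2 and the 15 genes named from the lists were put through the same alternatives after the data were seen; none changed direction, and MYBL2 alone passed the threshold, by limma-voom (log2 change -2.05). No paired analysis was possible because siNC has 1 library and the labels give no number that it shares with the siMYBL2 libraries. Counting error is small for the abundant members and larger for low ones. The ratio of SRSF8 in siMYBL2-1, for example, had a counting interval of 0.848 to 1.11. How far the number of libraries and the depth each limit what can be detected was not tested.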
